A study of Mus musculus with 29 samples.

Results

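T cell receptor chains were compared between ovary metastases sampled at day 3 of treatment with trametinib, alone or with an antibody against PD-L1, and ovary metastases sampled at day 0. The comparison took in 10 of the 29 samples of the series, chosen by organ, treatment and day in the sample titles: 6 samples of day 3 and 4 of day 0. All came from an experimental metastasis model of Braf-mutated melanoma in the mouse. The day 3 arms were trametinib (number 13), trametinib with anti-PD-L1 from the start (number 1, the concurrent combination) and trametinib with anti-PD-L1 given after an anti-PD-L1 lead-in (number 12, the lead-in combination). The day 0 arms were the anti-PD-L1 lead-in (number 10) and the untreated arm (number 3, called vehicle in the titles). Each arm had a single number, sampled as part 1 and part 2, and what a number or a part stands for is not stated in the labels. The comparison therefore rested on 3 day 3 numbers and 2 day 0 numbers, and its p-values measure only the spread between numbers. Each number is also another arm, so that spread includes any difference between arms, and no arm was replicated. Trametinib and day cannot be told apart, because no day 0 sample had the drug and no day 3 sample lacked it.

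Each T cell carries a receptor of an alpha chain (TRA) and a beta chain (TRB), each built by joining a V segment to a J segment. The joint, called the CDR3, is the most variable part of the chain and contacts the antigen. Most joints are private to an individual, but some are made so easily, or selected so strongly, that many individuals share them. Trametinib inhibits the kinase MEK, which also lies downstream of the T cell receptor, and PD-L1 restrains T cells by binding PD-1.

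The files held whole-number counts per clonotype, each clonotype defined by its V and J names together with the amino acids of its CDR3. Totals per sample were 16179 to 51674 for TRB and 14088 to 51549 for TRA, over 1521 to 3774 TRB and 1223 to 3270 TRA clonotypes each. At the lowest total, an exact Clopper-Pearson 95% interval of a share reached at most 0.83 percentage points to either side, and intervals cover counting error only. Of the clonotypes carried by all samples together (20431 TRB and 15562 TRA), 5 TRB and 18 TRA clonotypes were found in all 5 numbers. Only receptor chains were measured, so the organ label could not be checked, and fewer cells of a type cannot be told apart from less RNA per cell.

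The chains that differed most visibly between the day groups were TRBV16 chains whose CDR3 opens with CASSLELG. TRBV16 is the segment known as Vbeta11, which endogenous superantigens delete in some mouse strains. The opening was picked out after its values had been seen, so it is described here with no test. The 6 largest clonotypes that carried it are shown because their endings and J segments differed while the opening was the same:
TRBJ2-7, lead-in: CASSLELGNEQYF
TRBJ2-7, lead-in: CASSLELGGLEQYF
TRBJ2-5, untreated: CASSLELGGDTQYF
TRBJ2-7, untreated: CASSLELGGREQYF
TRBJ2-4, untreated: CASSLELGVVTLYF
TRBJ2-7, untreated: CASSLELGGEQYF

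In day 3 samples these TRBV16 chains held 0.0433% and 0.185% of TRB counts in the trametinib parts, 0% in both concurrent combination parts, and 0.00441% and 0.0106% in the lead-in combination parts. In day 0 samples they held 7.48% and 6.70% in the lead-in parts and 8.75% and 7.89% in the untreated parts. Every day 0 sample lay far above every day 3 sample. The 2 samples at 0 allow shares of up to 0.0121% and 0.0143% (3 counts of the total).

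The lead-in parts drew these counts mainly from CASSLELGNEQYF, with 3018 and 1621 counts, and from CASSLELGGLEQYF, with 801 and 327. The untreated parts drew them from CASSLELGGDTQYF, with 1308 and 692 counts, and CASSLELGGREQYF, with 639 and 569. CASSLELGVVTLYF had 103 and 172 counts in the untreated parts. None of these 5 clonotypes was found in both day 0 numbers, so the numbers shared the V segment and the opening but not these large clonotypes. In the trametinib parts the counts came from a single clonotype, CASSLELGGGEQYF, with 7 and 36 counts. Day 0 samples held 15 to 17 clonotypes with the opening, of which 3 in each lead-in part and 5 in each untreated part reached 10 counts. Of the smaller ones, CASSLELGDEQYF was found in both day 0 numbers, at 2 counts in part 2 of the lead-in and 10 and 12 counts in the untreated parts.

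TRBV16 as a whole followed these chains. It held 8.84% and 9.38% of TRB counts in the trametinib parts, 9.85% and 9.06% in the concurrent combination parts and 5.86% and 5.19% in the lead-in combination parts. It held 12.6% and 11.7% in the lead-in parts and 15.8% and 15.4% in the untreated parts, so the day groups did not overlap. The day 3 mean was 8.03% ± 2.18 (SD, n = 3 numbers) and the day 0 mean 13.9% ± 2.5 (n = 2), a log2 fold change of -0.79 ± 0.49 (SE) that did not pass in the fit across all V segments (edgeR quasi-likelihood test, adjusted p = 0.811). The CASSLELG chains made up 51.1% to 59.5% of TRBV16 counts in day 0 samples. Without them, TRBV16 held 5.18% to 9.85% in day 3 samples and 5.01% to 7.54% in day 0 samples, and the day 3 mean was the higher one by 1.82 percentage points.

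Brain metastases gave a second view of the same opening. In the brain of numbers that have no ovary sample, it held 0.681% of TRB counts in number 8, 0% in number 6 and 0.0178% in number 14 of day 3, and 0.496% in number 7 and 0.0303% in number 11 of day 0. Their means were 0.233% at day 3 (n = 3) and 0.263% at day 0 (n = 2; exact two-sided permutation p = 1, the smallest possible being 0.2). Each of these shares rested on 0 to 6 counts. Of the ovary numbers, the brain held 0%, 0.0219% and 0% at day 3 (numbers 13, 1 and 12) and 0.426% and 1.13% at day 0 (numbers 10 and 3), the highest from 7 counts.

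The second such chain was an alpha chain shared by all 5 numbers, TRAV7D-2 joined to TRAJ23. It is the clonotype of highest mean share among the 18 TRA clonotypes found in every number:
TRAV7D-2, TRAJ23: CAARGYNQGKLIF

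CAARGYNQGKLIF with TRAV7D-2 held 0.497% and 0.312% of TRA counts in the trametinib parts, 3.14% and 0.538% in the concurrent combination parts and 1.11% and 1.65% in the lead-in combination parts. It held 7.42% and 7.52% in the lead-in parts and 4.01% in both untreated parts. All day 0 samples lay above all day 3 samples, the nearest being part 1 of the concurrent combination. The same CDR3 and J segment also occurred with other V names, 4 to 7 names in a sample with TRAV7D-2 counted. Over all names they held 0.471% to 3.52% in day 3 samples and 4.78% to 8.26% in day 0 samples. Brain was sampled less deeply, with 635 to 18282 TRA counts in a number against 28528 to 80947 in the ovary. In brain the day groups overlapped: numbers without an ovary sample had means of 2.82% at day 3 (n = 3) and 3.11% at day 0 (n = 2; exact two-sided permutation p = 1), with 0% in number 7 and 6.22% in number 11.

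TRAJ23, the J segment of this chain, was the J segment of lowest p. It held 11.3% and 7.75% of TRA counts in the trametinib parts, 7.83% and 4.66% in the concurrent combination parts and 4.79% and 4.99% in the lead-in combination parts. Day 0 samples held 16.7% and 17.0% (lead-in) and 12.7% and 12.2% (untreated), with no overlap. The means were 6.89% ± 2.38 (SD, n = 3 numbers) at day 3 and 14.6% ± 3.1 (n = 2) at day 0, and the log2 fold change was -1.08 ± 0.42 (SE; unadjusted p = 0.0238, edgeR adjusted p = 0.932). Without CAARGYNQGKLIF, TRAJ23 held 3.28% to 10.5% in day 3 samples and 7.41% to 8.75% in day 0 samples, which overlap through part 1 of the trametinib arm.

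**Figure D1:**
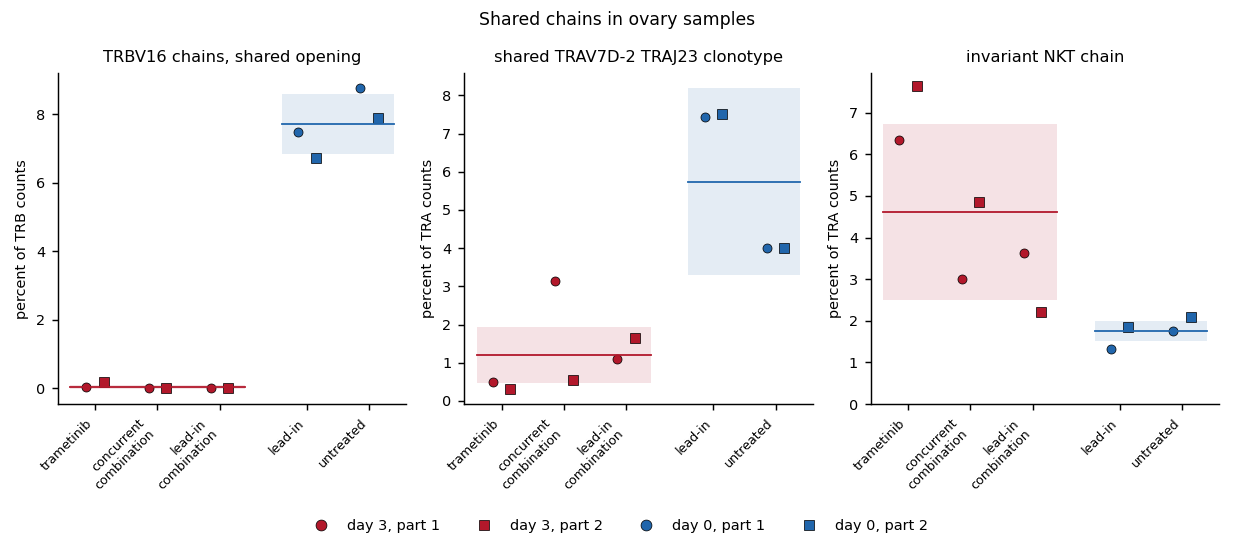
Share of each sample's chain counts held by TRBV16 chains with the shared CDR3 opening (left), the shared TRAV7D-2 TRAJ23 clonotype (middle) and the invariant natural killer T alpha chain (right), in percent. Circles are part 1 and squares part 2, red is day 3 and blue day 0, lines are means over numbers and bands ± 1 SD. The left and middle panels have every day 0 sample on top (6.70% to 8.75% and 4.01% to 7.52%), the right panel every day 3 sample (2.22% to 7.63%).

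All groups of a V segment and the first 8 CDR3 residues that reached 0.3% of a chain in a sample were then sorted by the same rule, that all day 3 samples lie on one side of all day 0 samples. Of 278 TRB groups, 9 were lower at day 3 (3.24%) and 3 higher (1.08%). Of 298 TRA groups, 7 were lower (2.35%) and 2 higher (0.671%). A group could reach 0.3% through samples of 1 day group alone. Absence from the other day group is therefore described with no test. TRBV16 CASSLELG and TRAV7D-2 CAARGYNQ had the highest day 0 shares of these 21 groups, and the next of the lower groups reached 1.804% of TRB counts.

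Of the higher groups, TRBV12-1 CASSLREN held 0.915% and 0.185% of TRB counts in the trametinib parts, 0.354% and 0.138% in the concurrent combination parts and 1.25% and 1.81% in the lead-in combination parts, and 0% in all 4 day 0 samples. Each day 3 number carried it on another J segment, shown because only the ending differs:
TRBJ2-1, trametinib: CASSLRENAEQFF
TRBJ1-2, concurrent combination: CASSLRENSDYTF
TRBJ1-1, lead-in combination: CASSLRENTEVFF

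These 3 clonotypes had 182, 117 and 620 counts. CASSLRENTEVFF also occurred in the lead-in combination with the V name TRBV3, at 1337 and 520 counts, where it was the third largest TRB clonotype of that arm. A TRAV12D-2 TRAJ32 alpha chain with a CDR3 of 16 residues was found in all 3 day 3 numbers, at 0.511% and 0.00693% in the trametinib parts, 0.326% and 0.920% in the concurrent combination parts and 1.905% and 0.610% in the lead-in combination parts. It was absent from the counts of all 4 day 0 samples. Of the lower groups, a TRAV8-1V8D-1 TRAJ27 chain of 13 residues (the table joins the names of V segments it could not tell apart) had 0% in all 6 day 3 samples and 0.204% to 0.372% in day 0 samples.

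Clonotypes found in all numbers of a day group and in none of the other were few. There were 2 TRB and 5 TRA clonotypes in all 3 day 3 numbers and no day 0 number, and 51 TRB and 108 TRA clonotypes in both day 0 numbers and no day 3 number. Of 20431 TRB and 15562 TRA clonotypes, 246 and 397 were in exactly 1 day 3 and 1 day 0 number, over all such pairings. Another 77 TRB and 115 TRA clonotypes were in exactly 2 day 3 numbers and no day 0 number. All these counts compare 3 numbers with 2 and deeper with shallower samples, so their sizes are given without a test. TRBV13-1 TRBJ2-7 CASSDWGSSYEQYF was the larger of the 2 TRB clonotypes in all 3 day 3 numbers and no day 0 number, with at most 0.297% in a sample.

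Invariant natural killer T cells recognise lipids on CD1d and carry a fixed alpha chain, in the mouse a TRAV11 copy joined to TRAJ18 with a CDR3 of 15 residues. Chains of this kind held 6.33% and 7.63% of TRA counts in the trametinib parts, 2.99% and 4.87% in the concurrent combination parts and 3.63% and 2.22% in the lead-in combination parts. They held 1.32% and 1.85% in the lead-in parts and 1.75% and 2.08% in the untreated parts. Every day 3 sample was above every day 0 sample, the closest being part 2 of the lead-in combination (exact 95% interval 2.04% to 2.42%) and part 2 of the untreated arm (1.9% to 2.28%), whose intervals overlap. The means were 4.61% ± 2.11 (SD, n = 3 numbers) at day 3 and 1.75% ± 0.23 (n = 2) at day 0, 2.86 percentage points apart (exact two-sided permutation p = 0.2, the lowest value that 3 against 2 can give, and adjusted p = 0.8 over 16 measures). Without number 13 the difference was 1.68 points.

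A single TRAV11N clonotype made up 70.5% to 87.1% of these counts in every sample, and between 99.8% and 100% of the counts had the 15-residue CDR3. TRAV11N itself held 2.19% to 6.14% in day 3 samples and 1.24% to 1.76% in day 0 samples (log2 fold change 1.36 ± 0.60 SE, edgeR adjusted p = 0.783). The joined name TRAV11V11D held 0.412% to 1.63% and 0.144% to 0.391% (log2 fold change 1.73 ± 0.93, edgeR adjusted p = 0.811). The day groups overlapped in TRAJ18 as a whole, which held 4.10% to 8.68% in day 3 samples, 2.36% and 2.77% in the lead-in parts and 23.1% and 20.7% in the untreated parts. TRAV7D-2 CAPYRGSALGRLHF alone held 15.6% of TRA counts in the untreated number. Without it, TRAJ18 still held 6.29% there, within the range of the day 3 samples. In brain, TRAV11N held 0.618% to 3.87% at day 3 and 0.538% to 6.0% at day 0.

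Mucosal-associated invariant T cells, which see microbial vitamin B metabolites bound to MR1, use TRAV1 with TRAJ33. This pair had 23 and 26 counts in the trametinib parts, 16 and 3 in the concurrent combination parts and 0 in both lead-in combination parts. Day 0 samples had 5 and 11 counts (lead-in) and 1 and 9 (untreated). The mean shares of 0.07% ± 0.0901 (SD, n = 3 numbers) at day 3 and 0.0228% ± 0.00109 (n = 2) at day 0 overlapped (exact permutation p = 0.8, adjusted p = 1), and without number 13 the difference was -0.00367 points.

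Among V segments, 110 were tested for day 3 against day 0 and none passed (0%, edgeR quasi-likelihood test, lowest adjusted p = 0.672), with 5 at an unadjusted p under 0.05 (4.55%). DESeq2 called 0, with 8 at an unadjusted p under 0.05. All 6 day 3 samples lay above all 4 day 0 samples for 4 V segments (3.64%) and below for 3 (2.73%). Of 53 J segments none passed (0%), 1 had an unadjusted p under 0.05 (1.89%, 3 by DESeq2, which called 0), none lay above (0%) and 2 lay below (3.77%). The median log2 fold change was 0.14 over V and -0.07 over J segments. In libraries simulated with 1 spread (dispersion 0.4), the fit across 110 V segments recovered 8 of 10 segments changed by 4 log2 units. Of 10 changed by 2 log2 units it recovered 4. The common dispersion fitted to the real libraries was 0.429. The changed segments were drawn from the more abundant ones, and spread that differs between segments was not simulated.

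TRAV5D-4V5N-4, a joined name of TRAV5 copies of which TRAV5D-4 is known from insulin-reactive T cells of NOD mice, also lay higher in every day 3 sample. It held 3.72% and 3.79% of TRA counts in the trametinib parts, 8.61% and 5.15% in the concurrent combination parts and 4.07% and 5.12% in the lead-in combination parts. Day 0 samples held 2.08% and 2.68% (lead-in) and 0.731% and 0.979% (untreated), with no overlap. Its log2 fold change was 1.72 ± 0.62 (SE, edgeR adjusted p = 0.672), and its largest clonotype made up 12.6% to 28.7% of it in each number. Without the 10 largest clonotypes of each chain in each number it was called (log2 fold change 1.71, edgeR adjusted p = 0.0327). With each clonotype counted once the log2 fold change was 0.62 (edgeR adjusted p = 0.699), and the groups overlapped, at 1.76% to 3.27% of TRA clonotypes in day 3 samples and 1.14% to 1.87% in day 0 samples. It was 1.16 by counts without number 3. The whole TRAV5 family held 4.10% to 9.38% at day 3 and 1.56% to 3.38% at day 0, with 3 of 3 tested names above 0 and none passing. In day 3 samples most of the family share was TRAV5D-4V5N-4 itself (8.61% of the 9.38%), so the family is not separate support. In brain TRAV5D-4V5N-4 held 1.88% to 3.23% at day 3 and 0% to 2.71% at day 0 (log2 fold change 1.04, unadjusted p = 0.122, edgeR adjusted p = 0.895).

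TRBV13-3, a member of the Vbeta8 family, held 3.57% and 5.04% of TRB counts in the trametinib parts, 2.52% and 2.33% in the concurrent combination parts and 2.43% and 2.34% in the lead-in combination parts. It held 1.47% and 1.58% in the lead-in parts and 1.68% and 2.23% in the untreated parts. The groups did not overlap by counts, nor when each clonotype was counted once, and no clonotype made up more than 10.8% of it in a number (log2 fold change 0.84 ± 0.60 SE, edgeR adjusted p = 0.873). All 3 members of the TRBV13 family lay above 0, with a median of 0.31 and none passing. TRBV13-1 lay at 0.31 and TRBV13-2 at 0.14 ± 0.49 (SE, edgeR adjusted p = 0.963). The family sum overlapped, from 13.2% to 24.3% at day 3 and 13.6% to 18.3% at day 0. Of a list of 10 TRBV segments known to be deleted by endogenous superantigens in some strains, 5 lay above 0 and 5 below. Their median was 0.07 and none passed. TRBV13-3 was not on that list, which need not be complete.

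Of the lower V segments, TRAV14-2V14N-2 held 2.72% in both trametinib parts, 2.70% and 2.32% in the concurrent combination parts and 1.36% and 2.18% in the lead-in combination parts, against 4.47% and 3.61% in the lead-in parts and 6.11% and 5.31% in the untreated parts (log2 fold change -1.10 ± 0.53 SE, edgeR adjusted p = 0.811). Its largest clonotype made up 11.8% to 26.5% of it in each number, and in the lead-in number that clonotype was again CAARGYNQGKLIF. Its log2 fold change was -0.61 without the 10 largest clonotypes and -0.19 with each clonotype counted once. TRAV12N-2 held 0.30% to 1.62% at day 3 and 1.65% to 2.78% at day 0 (log2 fold change -1.12 ± 0.70, edgeR adjusted p = 0.811), and its log2 fold change was -1.12 without the 10 largest clonotypes and -0.16 with each clonotype counted once. TRBJ2-4 held 5.85% to 8.51% and 8.55% to 12.5% (log2 fold change -0.37 ± 0.40, edgeR adjusted p = 0.932), with only a narrow gap between the groups.

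**Figure D2:**
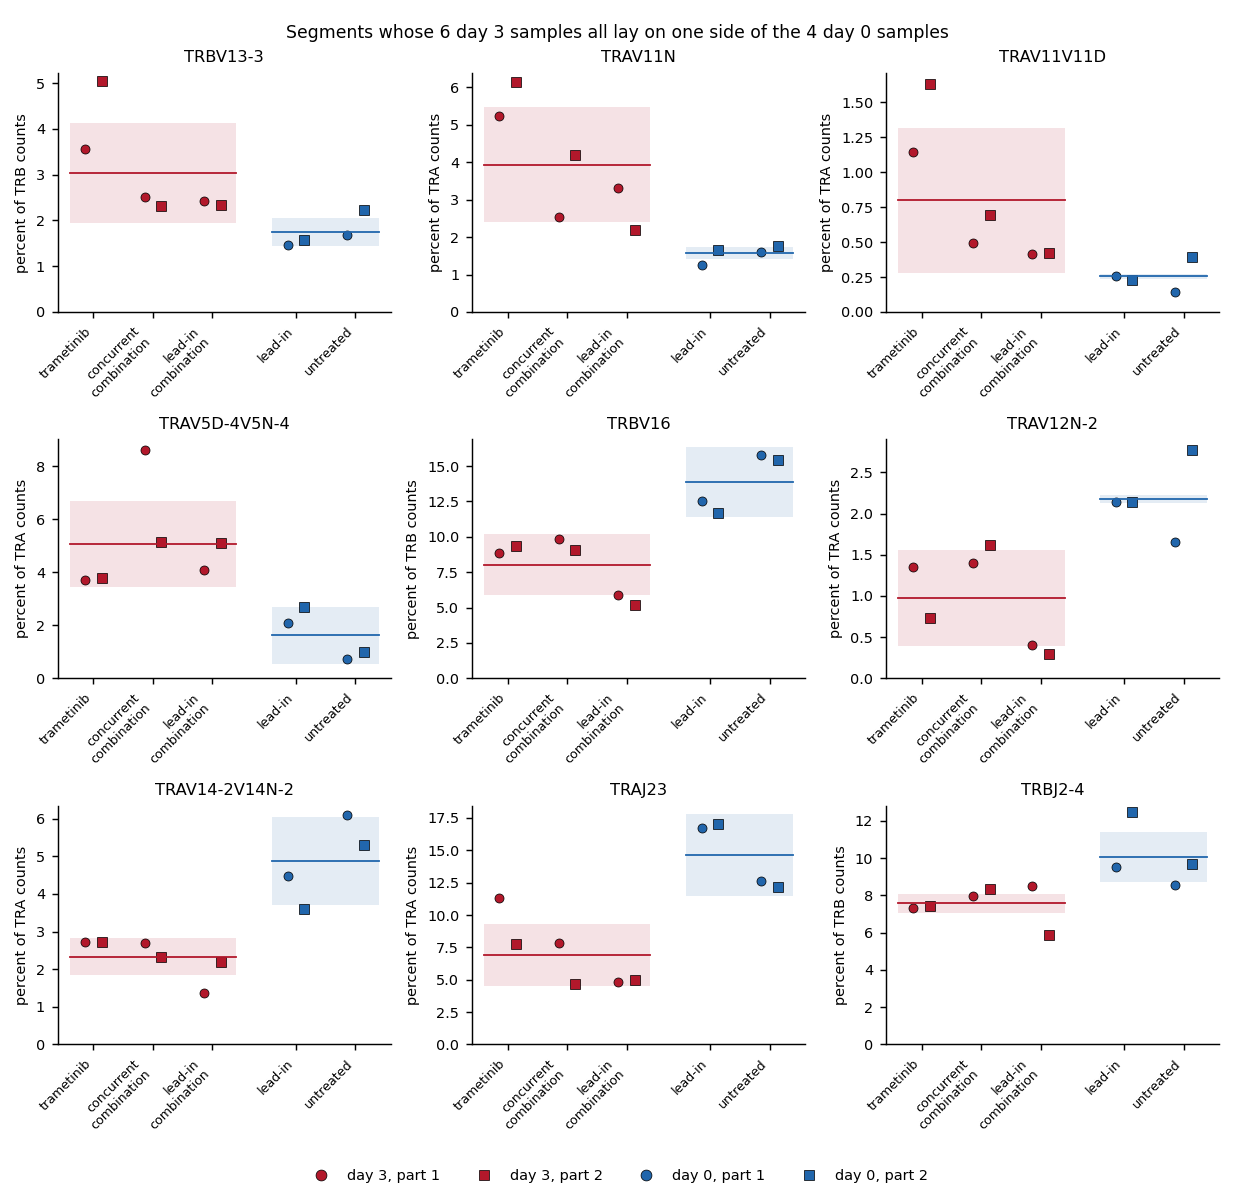
Share of each sample's TRA or TRB counts held by the 9 segments whose 6 day 3 samples all lay on one side of the 4 day 0 samples, in percent, by arm. Circles are part 1 and squares part 2, red is day 3 and blue day 0, lines are means over numbers and bands ± 1 SD. The first 4 segments are higher at day 3 and the other 5 lower, and none passed in the fits (adjusted p of 0.672 or more).

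TRBV23 and TRBV30 leaned on a single number each. TRBV23 held 5.44% and 8.57% in the lead-in combination parts, 0.262% to 1.03% in the other day 3 samples and 0.190% to 0.424% at day 0 (log2 fold change 3.17 ± 1.07 SE, edgeR adjusted p = 0.672). Of its 7.0% in that number, 5.43% was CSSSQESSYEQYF (TRBJ2-7). TRBV23 was called with no filter on low counts (edgeR adjusted p = 0.0372), without number 13 (0.00513) and without number 1 (0.00397), but its log2 fold change was 0.88 without number 12. TRBV30 held 3.30% and 3.31% in the lead-in parts and 0.122% to 0.946% in all other samples (log2 fold change -2.18 ± 0.84, edgeR adjusted p = 0.672), and 91.9% of it in that number was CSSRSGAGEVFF (TRBJ1-1). Without number 10 its log2 fold change was -0.77. TRAV6N-6 held 0.901% to 3.96% at day 3 and 0.245% to 1.20% at day 0 (log2 fold change 1.74 ± 0.71, edgeR adjusted p = 0.692), which overlap. Its log2 fold change stayed between 1.22 and 2.58 when a number was left out, and was 0.27 with each clonotype counted once.

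TRAV7D-2, singled out because an alternative called it, showed how far single clonotypes set the segment shares. It held 8.77% and 5.69% in the trametinib parts, 8.06% and 5.92% in the concurrent combination parts and 43.4% and 38.4% in the lead-in combination parts, against 12.8% and 12.9% in the lead-in parts and 30.1% and 25.9% in the untreated parts. The day groups overlapped (log2 fold change -0.16 ± 0.66 SE, edgeR adjusted p = 0.963). Without number 12 the fold change was -1.53 and was called (edgeR adjusted p = 0.000484). Leaving out the largest clonotype of each number put the segment at 5.03%, 5.15% and 11.01% in day 3 numbers 13, 1 and 12, and at 5.37% and 12.4% in day 0 numbers 10 and 3.

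**Figure D3:**
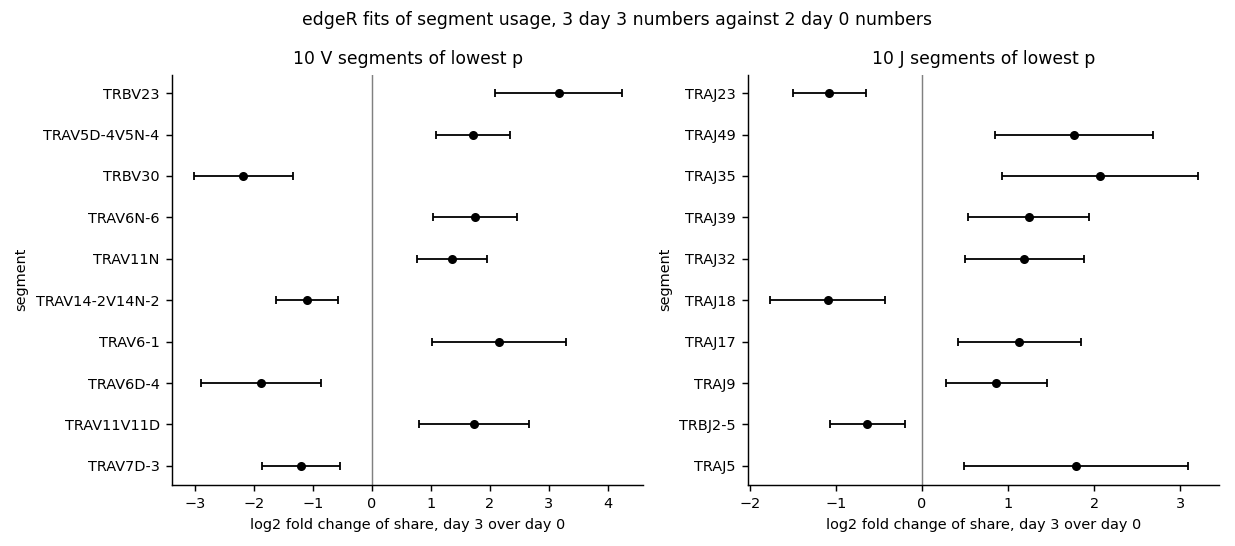
Log2 fold change of segment share, day 3 over day 0, for the 10 V (left) and 10 J segments (right) of lowest p in the edgeR fits of 3 against 2 numbers, with bars of ± 1 SE. TRBV23 lies farthest to the right at 3.17 and TRBV30 farthest to the left at -2.18, and no segment passed after adjustment.

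Fewer distinct alpha chains were found at day 3. At an equal depth of 14088 counts, TRA clonotypes numbered 1324 and 1462 in the trametinib parts, 1546 and 1386 in the concurrent combination parts and 1124 and 1049 in the lead-in combination parts. They numbered 2073 and 1801 in the lead-in parts and 2037 and 1627 in the untreated parts, above every day 3 sample. The difference of mean log2 richness was -0.53 (exact two-sided permutation p = 0.2, the smallest possible, adjusted p = 0.8). TRB richness at 16179 counts was 1439 to 2285 at day 3 and 1989 to 2468 at day 0, which overlap, with a difference of -0.34 (exact permutation p = 0.2, adjusted p = 0.8). The day 0 samples also held more TRA counts on average (a log2 difference of -0.72, exact permutation p = 0.2, adjusted p = 0.8), and the part that depth before sampling had in richness was not tested. Merging clonotypes 1 residue away from one at least 20 times larger, an alternative chosen after the data were seen, left the differences at -0.55 (TRA) and -0.35 (TRB).

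The lead-in combination stood apart in how far its counts gathered in few clonotypes. The TRA Simpson concentration (summed squared shares, so higher where few clonotypes hold most counts) was 1.06% and 0.760% in the trametinib parts, 0.755% and 0.948% in the concurrent combination parts and 9.57% and 10.05% in the lead-in combination parts, against 1.22% and 0.996% in the lead-in parts and 3.28% and 2.44% in the untreated parts. The day 3 mean was 1.87 percentage points above the day 0 mean (exact permutation p = 1, adjusted p = 1), and without number 12 the difference was -1.10. The TRB concentration was 0.437 points higher (exact permutation p = 0.8, adjusted p = 1) and -0.0214 without number 12. The 10 largest TRA clonotypes held 19.2% to 55.1% at day 3 and 22.2% to 30.7% at day 0. TRB CDR3 length averaged 13.96 ± 0.07 residues at day 3 and 13.95 ± 0.08 at day 0 (SD, n = 3 and 2 numbers; exact permutation p = 1, adjusted p = 1), and none of the 16 measures passed.

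**Figure D4:**
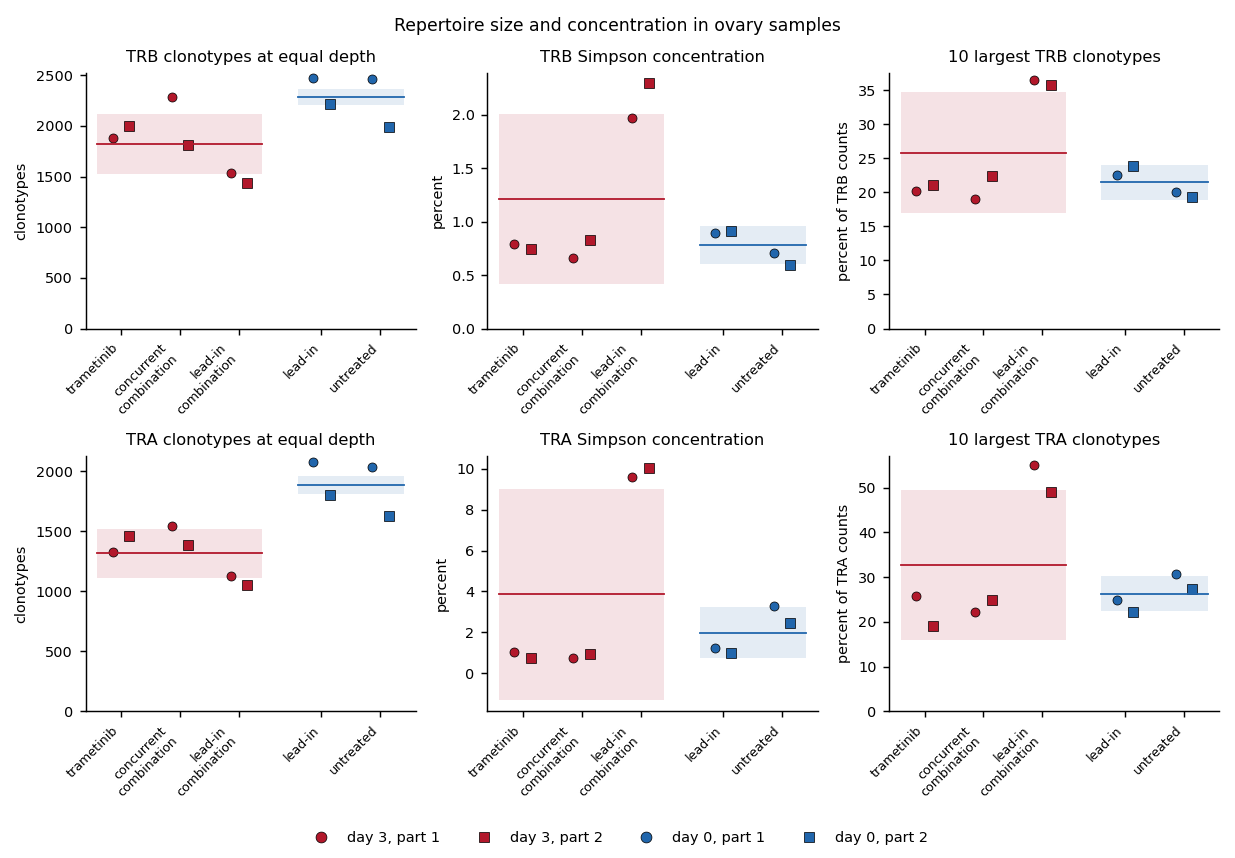
Clonotypes at equal depth (left), Simpson concentration (middle) and the share of the 10 largest clonotypes (right) for TRB (top) and TRA (bottom), by arm. Circles are part 1 and squares part 2, red is day 3 and blue day 0, lines are means over numbers and bands ± 1 SD. TRA richness reaches 1546 at most in day 3 samples and is at least 1627 in day 0 samples, and the lead-in combination stands apart in the other panels.

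The largest TRA clonotype was one found in all 5 numbers in 3 of the 5 arms. It was the TRAV11N TRAJ18 chain in the trametinib arm (5.04% of TRA counts) and the concurrent combination (2.98%), and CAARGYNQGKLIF with TRAV7D-2 in the lead-in (7.47%). In the untreated arm, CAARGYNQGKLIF and then the TRAV11N TRAJ18 chain came after the largest, at 4.01% and 1.56%. Other large clonotypes had nearly all their counts in 1 number, and some in 1 part. In the trametinib arm, TRBV12-1 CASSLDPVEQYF had 1044 counts in part 1 and 165 in part 2, and TRAV13D-1 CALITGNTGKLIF had 827 and 118. In the concurrent combination, TRAV6-1 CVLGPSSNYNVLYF had 27 and 970 counts and a TRBV13-2 chain of 16 residues 22 and 1178, while TRBV16 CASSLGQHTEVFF had 857 and 417. Which alpha and beta chains pair in a cell was not measured.

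In the lead-in combination, TRAV7D-2 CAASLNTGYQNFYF (TRAJ49) had 8016 and 7219 counts, 29.9% of TRA counts, and TRBV1 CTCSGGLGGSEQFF had 2027 and 2059. A TRAV7D-2 TRAJ39 chain of 15 residues had 2141 counts in part 1 and 5 in part 2 of the same number. Of the day 0 arms, the lead-in had TRAV6D-5V6N-5 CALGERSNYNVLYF at 2677 and 399 counts beside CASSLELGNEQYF, and the untreated arm had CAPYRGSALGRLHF at 6377 and 3100.

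Overlap between parts, by the Morisita-Horn index (100% for identical shares), was 59.9% (TRB) and 61.7% (TRA) in the trametinib arm, 55.9% and 56.6% in the concurrent combination and 86.2% and 95.3% in the lead-in combination. It was 87.4% and 81.9% in the lead-in and 80.4% and 97.1% in the untreated arm. The index is ruled by the largest clonotypes. By number of clonotypes, at unequal depth, the lead-in combination parts shared the fewest, 284 TRB and 314 TRA. In the other arms the parts shared 327 to 717 TRB and 333 to 743 TRA clonotypes. A larger overlap within than between day groups was not shown: the mean index was 0.947% within and 1.19% between day groups for TRB (exact one-sided permutation p = 0.8, smallest possible 0.1, adjusted p = 1) and 11.8% within and 9.34% between for TRA (exact p = 0.3, adjusted p = 1). The highest TRA index, 25.3%, was that of the trametinib and concurrent combination numbers, next to 25.1% for the concurrent combination and the lead-in.

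**Figure D5:**
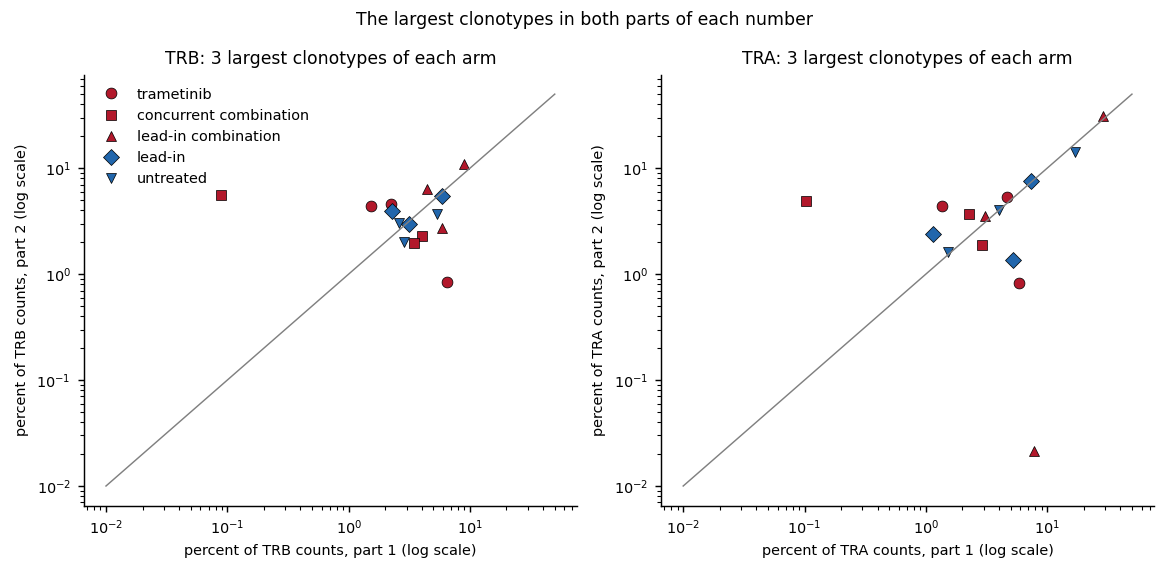
Share of the 3 largest TRB (left) and TRA (right) clonotypes of each arm in part 1 and part 2, in percent of the chain on log axes, red for day 3 and blue for day 0 arms. Points on the grey line have equal shares in both parts. Day 3 arms have the points farthest from the line, down to 0.0213% in part 2 of the lead-in combination against 7.74% in part 1.

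Each day 3 arm with a matching day 0 arm was also set beside it, with no test at 1 number each. For trametinib minus untreated, neither with anti-PD-L1, the differences were 5.06 percentage points for the invariant natural killer T share, -6.50 for TRBV16, 2.90 for TRAV5D-4V5N-4, -2.90 for TRAJ23 and -0.39 for TRA log2 richness. For the lead-in combination minus the lead-in they were 1.34, -6.62, 2.21, -11.97 and -0.83. All 5 had the same sign in both pairs, which the choice of non-overlapping measures fixes. TRA concentration changed sign, at -1.95 points in the first pair and 8.70 in the second. TRB concentration was higher at day 3 in both pairs, by 0.119 and 1.23 points. The concurrent combination has no day 0 arm of its own.

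The brain of the same 5 numbers was used to test whether the day contrast of V segments differed between organs, with number as a block. None of 111 segments passed (0%, edgeR quasi-likelihood test of the interaction, lowest adjusted p = 0.679). TRAV12N-2, TRAV15N-2, TRAV7-1 and TRBV26 shared that lowest value, and they were the 4 at an unadjusted p under 0.05. For TRAV11N the ovary contrast exceeded that of brain by 2.16 log2 units (edgeR adjusted p = 0.767), and for TRBV16 it differed by -0.31 (edgeR adjusted p = 0.912). The brain of the day 0 numbers had only 733 (number 3) and 930 (number 10) TRA counts. The shared TRAV11N TRAJ18 clonotype had 41 and 4 counts there.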

How the data were processed

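Receptor transcripts of bulk tumour RNA were sequenced after QIAGEN AllPrep or Ambion mirVana extraction with libraries from the QIAseq Immune Repertoire RNA Library Kit (per the labels' protocols). Whole-number counts per clonotype and sample make up the table that the authors deposited, and if molecules or reads were counted is not given in the sources used here. GRCh38, which is human, is the genome in the submitters' processing notes although the samples are from mice, and coordinates were left out. The protocols also name gamma and delta chains, while the table used here holds TRA and TRB. No column was left unmapped (0), and no pair of ovary columns was identical (0).

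Of 49519 rows, 176 with an unresolved CDR3 residue were left out (0.0362% of ovary counts). Joined V names, 30.2% of ovary TRA counts, were kept as written, and 92 of 92 single V names matched a RefSeq symbol. The members and lists were chosen with earlier results of these data known. Segments named are the 10 of lowest p in each fit, those whose day groups did not overlap, and 2 (TRAV7D-2, TRAJ45) that an alternative called, the last group chosen after the values were seen. Clonotypes named are the 3 largest per arm and chain and up to 5 per sharing pattern, and CDR3s of up to 14 residues are printed.

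Counts of the parts were summed per number and tested with edgeR 4.0.16 (quasi-likelihood, chain totals as library sizes, at least 10 counts in 2 libraries, Benjamini-Hochberg threshold 0.05), 3 numbers against 2. DESeq2 1.42.0 was an alternative. The organ comparison had number as a block, since brain and ovary samples share it in their titles. Measures were averaged over parts and compared by exact permutation (Python 3.11.15, scipy 1.17.1), and the fits were tested on simulated data.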

Additional observations from a re-analysis of the deposited data

Results flagged for a closer look

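Dixon's test at 95% was applied to 88 sets of values within a day group, and 6 had a sample apart from the rest. Chance gives about 1 in 20 for independent values. Parts of the same number are not independent, and the segments and shared chains among the sets were chosen on these same values. This rate therefore need not hold here. TRAV5D-4V5N-4 held 8.61% of TRA counts in part 1 of the concurrent combination, the next day 3 sample holding 5.15%. TRAV6-1 held 5.30% in part 2 of that arm, next to 1.58%, and TRAV7D-3 held 4.28% there, next to 1.34%. TRAJ39 held 11.99% in part 1 of the lead-in combination, next to 2.66%, and a single TRAV7D-2 chain held 7.74% of TRA counts in that sample. The TRBV16 chains opening with CASSLELG held 0.185% of TRB counts in part 2 of the trametinib arm, next to 0.0433%. TRAJ45 held 0.947% in part 1 of the lead-in, the lowest day 0 sample, next to 1.38%.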

How the results depend on the processing

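Alternatives kept the direction and the side of the threshold for 265 of 287 segment values and 188 of 206 values of measures and overlaps. Many of the latter could not change. Some alternatives leave a measure as it was, such as concentration when only the depth for richness was altered. Exact tests of 3 against 2 numbers could not pass in any setting, so the count of 188 does not show robustness. The number of V segments called was 1 with no filter on low counts (TRBV23), 1 without the 10 largest clonotypes (TRAV5D-4V5N-4) and 0 to 1 when a number was left out (TRBV23 without number 13 or 1, TRAV7D-2 without 12). With each part as its own library it was 0 (edgeR lowest adjusted p = 0.0793). J segments numbered 1 with each clonotype counted once (TRAJ45, log2 fold change -0.99, edgeR adjusted p = 0.0231) and 0 when a number was left out. Without the replicate block, the organ comparison again called 0 V segments (edgeR lowest adjusted p = 0.769). Leaving out a number gave differences of -0.0214 to 0.674 points in TRB and -1.10 to 3.38 in TRA concentration, -0.773 to 6.97 and -3.29 to 11.5 points in the share of the 10 largest, and -0.5 to 4 and -1.83 to 3.17 clonotypes of 1% or more. It gave -0.0528 to 0.0658 residues in TRB CDR3 length, -0.0946 to 0.0731 in hydropathy at CDR3 positions 6 and 7 (-0.00547 with parts summed) and -0.00367 to 0.0822 points in the MAIT share. The overlap difference was -0.695 to 0.495 points (TRB) and -3.44 to 7.93 (TRA), and -34.8 to 8.52 shared TRA clonotypes. Log2 fold changes that turned were -0.45 for TRAV6-1, 0.16 for TRBV16, -0.23 for TRAJ49 and -0.29 for TRAJ5 without the 10 largest clonotypes, -0.24 for TRAJ49, 0.18 for TRAJ18 and 0.11 for TRAV7D-2 with each clonotype counted once, and 0.42 for TRAV7D-2 under TMM. With a number left out, TRAJ49 had -0.40 to 2.27, TRAJ18 -1.94 to 1.21, TRAJ5 -0.91 to 2.35 and TRAV7D-2 -1.53 to 0.53. The TRBV16 share difference was 1.82 points without the shared chains, an alternative chosen after seeing the data. Beyond the removal of clonotypes or numbers itself, the cause was not tested. With 3 numbers against 2 no exact p could pass, and numbers, not counts, limited precision.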
